A study of Mus musculus with 18 samples.

Results

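Cortical interneuron lineage genes were followed through arrays of Brca1 knockout and wild-type mouse brain at postnatal day 7. The 9 genes are Dlx1, Dlx2, Dlx5, Dlx6, Lhx6, Sox6, Nr2f2, Nxph1 and Kcnip1, of 18193 genes on the arrays. All probe sets annotated to exactly 1 of these genes were taken, which gave 16 on the cortex A chip, 7 on the cortex B chip (for Nr2f2, Nxph1 and Sox6) and 23 in the rest table. Lhx6 and Sox6, genes of interneurons from the medial ganglionic eminence, were set against Nr2f2, a gene of interneurons from the caudal ganglionic eminence.

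The knockout animals carried 1 Brca1 allele with floxed exons 5 to 13 and 1 null allele made with an inverted neo cassette at exon 11. Nestin Cre acts in neural progenitors, so both neurons and macroglia descend from cells it reached. The wild-type animals were of the same age, and whether they carried Cre or a floxed allele is not stated. Each of the 3 tables (cortex on an A chip, cortex on a B chip, and samples titled rest, with P7 brain as their source) held 3 knockout and 3 wild-type arrays, in 6 groups and 18 arrays. The tissue meant by rest is not given, nor is it stated whether samples of 1 replicate number came from the same animal, or the A and B chips from the same RNA.

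GABAergic interneurons of the cortex are born outside it, in the ganglionic eminences of the ventral forebrain, and migrate into it. Dlx homeobox factors are switched on in their progenitors and keep acting in the migrating and settled cells. Cells of the medial eminence use Lhx6 and Sox6 and become parvalbumin and somatostatin interneurons, while cells of the caudal eminence use Nr2f2 (COUP-TFII) and become interneurons of other kinds, with vasoactive intestinal peptide or reelin among their markers. Several of these genes are not confined to interneurons. Dlx genes are also active in striatal neurons and in neuroblasts bound for the olfactory bulb, Sox6 in oligodendrocyte precursors, and Nr2f2 in venous endothelium and mesenchymal cells.

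The promoters of 4 members are printed because their probe sets carry the main changes in the cortex: Dlx1, Lhx6 and Nxph1 were lower and Nr2f2 was higher. The sequences are RefSeq windows on GRCm38.p6, from 250 bases before to 50 bases after an annotated start, read 5′ to 3′ on the strand of the gene, and the capitals mark the 50 bases from the start onward. They lie at chr2:71529195-71529494 (plus strand) for Dlx1, chr2:36105359-36105658 (minus strand) for Lhx6, chr6:8949769-8950068 (plus strand) for Nxph1 and chr7:70366697-70366996 (minus strand) for Nr2f2. Lhx6 has 3 such windows, of which the one farthest upstream is shown, and the arrays do not tell which start was used.
Dlx1: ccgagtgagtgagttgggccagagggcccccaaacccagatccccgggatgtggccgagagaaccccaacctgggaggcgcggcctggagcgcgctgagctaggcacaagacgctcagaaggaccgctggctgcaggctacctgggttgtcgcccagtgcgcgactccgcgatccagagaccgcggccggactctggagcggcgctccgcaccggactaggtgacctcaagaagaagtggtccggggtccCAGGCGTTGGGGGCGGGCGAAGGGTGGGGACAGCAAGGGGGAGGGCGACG
Lhx6: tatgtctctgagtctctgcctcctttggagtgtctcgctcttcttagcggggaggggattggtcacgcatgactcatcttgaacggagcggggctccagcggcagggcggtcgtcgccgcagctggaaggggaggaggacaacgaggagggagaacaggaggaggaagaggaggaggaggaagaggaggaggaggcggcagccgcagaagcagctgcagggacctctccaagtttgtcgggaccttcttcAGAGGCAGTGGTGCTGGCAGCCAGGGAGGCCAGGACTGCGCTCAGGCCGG
Nxph1: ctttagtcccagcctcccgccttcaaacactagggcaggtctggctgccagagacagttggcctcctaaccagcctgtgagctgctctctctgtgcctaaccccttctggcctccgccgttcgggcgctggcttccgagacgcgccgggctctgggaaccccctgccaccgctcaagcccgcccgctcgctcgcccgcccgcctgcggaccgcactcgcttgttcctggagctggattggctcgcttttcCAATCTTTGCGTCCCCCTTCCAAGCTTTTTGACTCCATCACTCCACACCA
Nr2f2: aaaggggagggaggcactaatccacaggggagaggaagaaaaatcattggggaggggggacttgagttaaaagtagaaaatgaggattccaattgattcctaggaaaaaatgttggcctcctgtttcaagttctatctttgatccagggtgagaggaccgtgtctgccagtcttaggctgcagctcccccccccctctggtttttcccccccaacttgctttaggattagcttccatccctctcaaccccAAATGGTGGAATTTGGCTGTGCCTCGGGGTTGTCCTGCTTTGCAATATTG

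GC content was 69.3% in the Dlx1 window, 63.3% in that of Lhx6, 64% in that of Nxph1 and 49.7% in that of Nr2f2, beside a median of 52.7% over all 32851 windows. The homeodomain core TAATTA, which is its own reverse complement and so is found on both strands at once, was in none of the 16 windows of the 7 members that had one, and 5.29% of all windows hold it. The absence says only that these letters are not in these windows. Dlx1 and Dlx2 are neighbours on chromosome 2.

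A signal was listed for 54% to 58% of the probe sets of an A chip array, 33.6% to 42.6% of a B chip array and 49.2% to 51.6% of a rest array, and the other cells were blank for a reason that the labels do not give. The Brca1 probe set listed on all arrays read 51.4, 44.0 and 61.4 in knockout cortex and 38.0, 36.9 and 48.9 in wild-type cortex (limma adjusted p = 0.496). The Y-linked gene Eif2s3y was listed in knockout replicates 1 and 2 and on no other array in each table, so sex and genotype are partly confounded, and adding that pattern as a term leaves knockout replicate 3 alone to be set against the wild types. The labels name no batch, and p-values measure the spread between these arrays.

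In the knockout cortex, Dlx1, Lhx6, Nxph1 and one probe set of Kcnip1 fell, and the 2 probe sets of Nr2f2 that could be tested on the A chip rose. Dlx2 and Dlx5 were listed on no knockout array of the A chip and on every wild-type array. Sox6, the second medial eminence gene, did not pass the test in any table. In the rest samples 0 of 16 tested member probe sets passed, where 0.313% of all did.

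Signals are scaled MAS5 signals, a linear brightness in arbitrary units that is comparable between arrays of a table for 1 probe set but not between probe sets. A log2 change is the knockout mean minus the wild-type mean of log2(signal + 16), which understates the change of dim probe sets, and SE is its standard error from limma. The test took probe sets with at least 2 listed values in each genotype, and calls were made where the adjusted p, over all probe sets tested in the table, was under 0.05.

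Of the 16 member probe sets on the A chip, 12 were listed on at least 1 array and 8, for 6 genes, were tested. The call was made for 6 of the 8, with 2 higher and 4 lower in the knockout. Among all 12065 probe sets tested on this chip, 3.02% were called, 2.3% higher and 0.713% lower. The median log2 change was -0.48 over the 8 member probe sets and -0.01 over all. These 8 leave out Dlx2, Dlx5 and Dlx6, which had too few listed values, so they do not stand for all members.

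Dlx1 encodes a homeobox factor needed by migrating interneurons and by some mature ones. Its probe set, 1449470_at, read 60.9 and 59.9 in knockout replicates 1 and 2 and was blank in knockout replicate 3, against 215, 209 and 235 in the wild-type cortices. All listed knockout values lay far below all wild-type values, and the spread within each genotype was small beside the gap. The mean was 60.4 ± 0.685 in knockout cortex (SD, n = 2) and 219.6 ± 13.4 in wild-type cortex (SD, n = 3), a difference of -1.62 on the log2 scale (SE 0.135, limma adjusted p = 0.000182). Because of the blank, this fit used 2 knockout arrays, both with Eif2s3y listed, and the fit with the sex-marker pattern gave no value. With the blank set to a low signal the log2 change was -1.75 (limma adjusted p = 0.00093).

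Dlx2 and Dlx5 are relatives of Dlx1 with overlapping roles in the same progenitors. The Dlx2 probe set was blank in all 3 knockout cortices and read 78.9, 62.0 and 48.8 in the wild-type cortices. The Dlx5 probe set was likewise blank in all 3 knockout cortices and read 83.2, 58.5 and 101 in the wild-type cortices. The main fit gave no log2 change for these 2 probe sets, since the knockout values were blank. Of 10 member probe sets listed on all wild-type arrays of the A chip, these 2 were blank on all knockout arrays, a pattern found in 0.373% of all 11532 probe sets listed on all wild-type arrays. The reverse pattern, blank in all wild types, was found for 0 of 7 members listed on all knockout arrays and for 0.559% of all such probe sets. With blanks set to a low signal, the log2 changes were -0.41 for Dlx2 and -0.69 for Dlx5, and neither was called (limma adjusted p = 0.312 and 0.12). All 3 knockout values in these fits were the set signal, the 5th percentile of the array, so the sizes depend on that choice. Both probe sets were dim where listed, and the knockout level behind a blank is unknown. The Dlx6 probe set was blank on every array of the A chip and of the rest table.

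**Figure D1:**
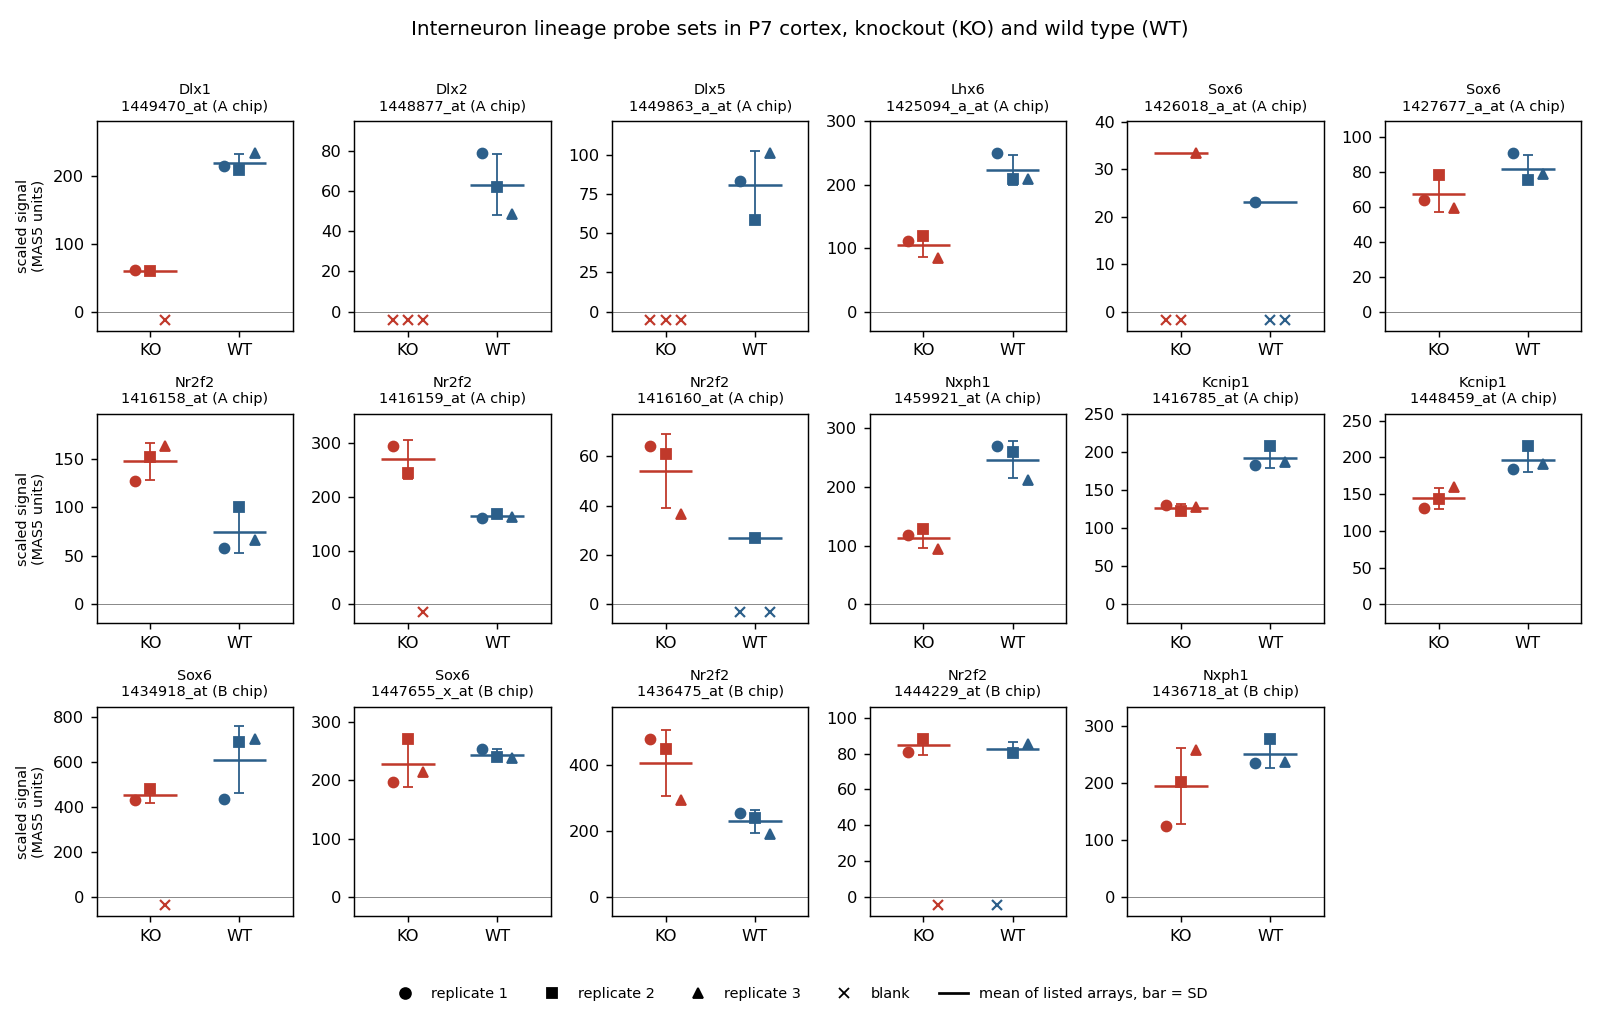
Scaled signal (MAS5 units, linear) of the 17 member probe sets listed on at least 1 cortex array, with knockout (KO) left of wild type (WT), 1 point per array, and the mean and SD of the listed arrays. A cross below 0 marks a blank, and Dlx2 and Dlx5 have crosses for all 3 knockout arrays. The Dlx1, Lhx6 and Nxph1 1459921_at points of the knockouts lie below all wild-type points, while Nxph1 1436718_at (B chip) overlaps. Those of Nr2f2 1416158_at, 1416159_at and 1436475_at lie above all wild-type points.

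Lhx6, a LIM-homeobox factor that directs the fate and migration of medial eminence interneurons, was measured by 1425094_a_at. It read 111, 119 and 84.0 in knockout cortex, against 250.2, 209.6 and 209.7 in wild-type cortex. The highest knockout value was well under the lowest wild-type value. The mean was 105 ± 18.4 in knockout cortex and 223 ± 23.4 in wild-type cortex (SD, n = 3 each), a difference of -0.99 on the log2 scale (SE 0.143, limma adjusted p = 0.00335). The call held in all 19 alternative fits, with log2 changes from -1.25 to -0.77 and a highest limma adjusted p of 0.0193. A second Lhx6 probe set was blank on all A chip arrays.

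Sox6, a transcription factor that acts after Lhx6 in the positioning and maturation of these cells, did not follow it past the threshold. Probe set 1427677_a_at read 63.6, 78.1 and 59.4 in knockout cortex, against 90.7, 75.5 and 78.7 in wild-type cortex, and the groups overlapped. The log2 change was -0.24 (SE 0.144, 95% interval -0.56 to 0.08, limma adjusted p = 0.479). Another Sox6 probe set, 1426018_a_at, was listed only in knockout replicate 3, at 33.4, and wild-type replicate 1, at 23.0, and was not tested. On the B chip Sox6 1434918_at read 429.6 and 479 in knockout replicates 1 and 2 and was blank in replicate 3, against 437, 685 and 703 in wild-type cortex. Its ranges overlapped, and the log2 change of -0.38 (SE 0.213, 95% interval -0.84 to 0.08) did not pass (limma adjusted p = 0.784). Sox6 1447655_x_at also overlapped between genotypes, with a difference of -0.11 on the log2 scale (SE 0.189, limma adjusted p = 0.971). Since Sox6 is also a gene of oligodendrocyte precursors, their list is given beside it. On the A chip 2 of 10 tested genes were called lower and 0 higher, and 9 had a log2 change below 0. The summed signal of the list was 1926 to 2432 in knockout and 2643 to 2958 in wild-type cortex. Its part in the Sox6 values was not tested.

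Nxph1 encodes neurexophilin, a secreted ligand of neurexins found in many interneurons. Probe set 1459921_at read 118, 128 and 94.5 in knockout cortex, against 270.2, 259 and 212 in wild-type cortex, with no overlap. The mean was 113 ± 17.2 in knockout cortex and 247 ± 31.1 in wild-type cortex (SD, n = 3 each), a difference of -1.02 on the log2 scale (SE 0.14, limma adjusted p = 0.00238). This call, too, held in all 19 alternatives, with log2 changes from -1.24 to -0.81. On the B chip a second probe set, 1436718_at, read 125, 201 and 258 in knockout cortex, against 235, 277 and 237 in wild-type cortex. Knockout replicate 3 lay above 2 of the 3 wild types there, although the same replicate gave the lowest Nxph1 value on the A chip. On the B chip this replicate had the smallest share of listed probe sets, at 33.6%. It also had the highest ratio of 3′ to 5′ actin control signal, at 2.40 against 1.86 to 2.16 on the other B chip arrays. The part of array quality in these values was not tested. The B chip log2 change was -0.39 (SE 0.237, 95% interval -0.89 to 0.12, limma adjusted p = 0.814), so the 2 probe sets differ in whether the call was made. It was -0.12 without knockout replicate 1, -0.60 without knockout replicate 3, and 0.048 once the sex-marker term was added.

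Kcnip1 encodes a calcium-binding partner of A-type potassium channels and is enriched in some interneurons. Probe set 1416785_at read 131, 123 and 128 in knockout cortex, against 183, 208 and 187 in wild-type cortex. The groups did not overlap, and the knockout values were close to each other. The log2 change was -0.54 (SE 0.112, limma adjusted p = 0.026). Probe set 1448459_at read 131, 143 and 159.5 in knockout cortex, against 184, 216 and 191 in wild-type cortex, also without overlap, but its log2 change of -0.41 (SE 0.12) was not called (limma adjusted p = 0.111). The call of 1416785_at was lost when any single array was left out (limma adjusted p from 0.0523 to 0.0996) and with the sex-marker term (0.269), while its log2 change stayed between -0.59 and -0.42 over all alternatives. The other 2 Kcnip1 probe sets of the A chip were blank throughout.

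Nr2f2, a nuclear receptor that marks caudal eminence interneurons, was the only member with called rises. Probe set 1416158_at read 127, 152 and 163 in knockout cortex, against 58.1, 101 and 66.4 in wild-type cortex, and the lowest knockout value was above the highest wild-type value. Its mean was 147 ± 18.8 in knockout cortex and 75.0 ± 22.5 in wild-type cortex (SD, n = 3 each), a difference of 0.87 on the log2 scale (SE 0.179, limma adjusted p = 0.0256). Probe set 1416159_at read 294 and 244 in knockout replicates 1 and 2 and was blank in replicate 3, against 161, 167 and 163 in wild-type cortex. Here the blank lay on an array of the brighter genotype. Over the listed arrays the log2 change was 0.66 (SE 0.129, limma adjusted p = 0.0236), and with the blank set to a low signal it turned to -0.10 (limma adjusted p = 0.956). Probe set 1416160_at was listed at 64.3, 60.8 and 36.7 in knockout cortex and only in wild-type replicate 2, at 26.8, and was not tested.

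The Nr2f2 calls depended on single arrays and on other settings. For 1416158_at the limma adjusted p was 0.11 without knockout replicate 2, 0.102 without knockout replicate 3, 0.0934 without wild-type replicate 1 and 0.0678 without wild-type replicate 3, and it was 0.163 with the sex-marker term, at log2 changes from 0.61 to 1.06 over all alternatives. For 1416159_at it was 0.0763, 0.0549 and 0.0505 without wild-type replicates 1, 2 and 3, and it could not be fitted without knockout replicate 1 or 2.

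The B chip carried other probe sets of Nr2f2. Probe set 1436475_at read 482, 449 and 294 in knockout cortex, against 257, 242 and 191 in wild-type cortex. All knockout values were above all wild-type values, as were those of 7.57% of all probe sets listed on all 6 B chip arrays. The log2 change was 0.77 (SE 0.209, 95% interval 0.32 to 1.22), but it was not called (limma adjusted p = 0.219). It was 0.34 with the sex-marker term (limma adjusted p = 0.608) and was called with array weights (0.88, limma adjusted p = 0.0272). Probe set 1444229_at read 80.7 and 88.3 in knockout cortex and 80.3 and 85.2 in wild-type cortex on the arrays that listed it, with a log2 change of 0.02 (SE 0.289). In all, 0 of 5 tested member probe sets were called on the B chip by limma, and 1 had an unadjusted p under 0.05, as had 579 of all 7838 probe sets tested there. Of all these, 0.281% were called, 0.23% higher and 0.051% lower. Of the 3 listed throughout, 0 had all knockout values below all wild-type values, against 6.04% of all. No member was blank across 1 genotype and listed across the other on the B chip, where 0.202% of all probe sets listed in every wild type were blank in every knockout and 0.793% showed the reverse.

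**Figure D2:**
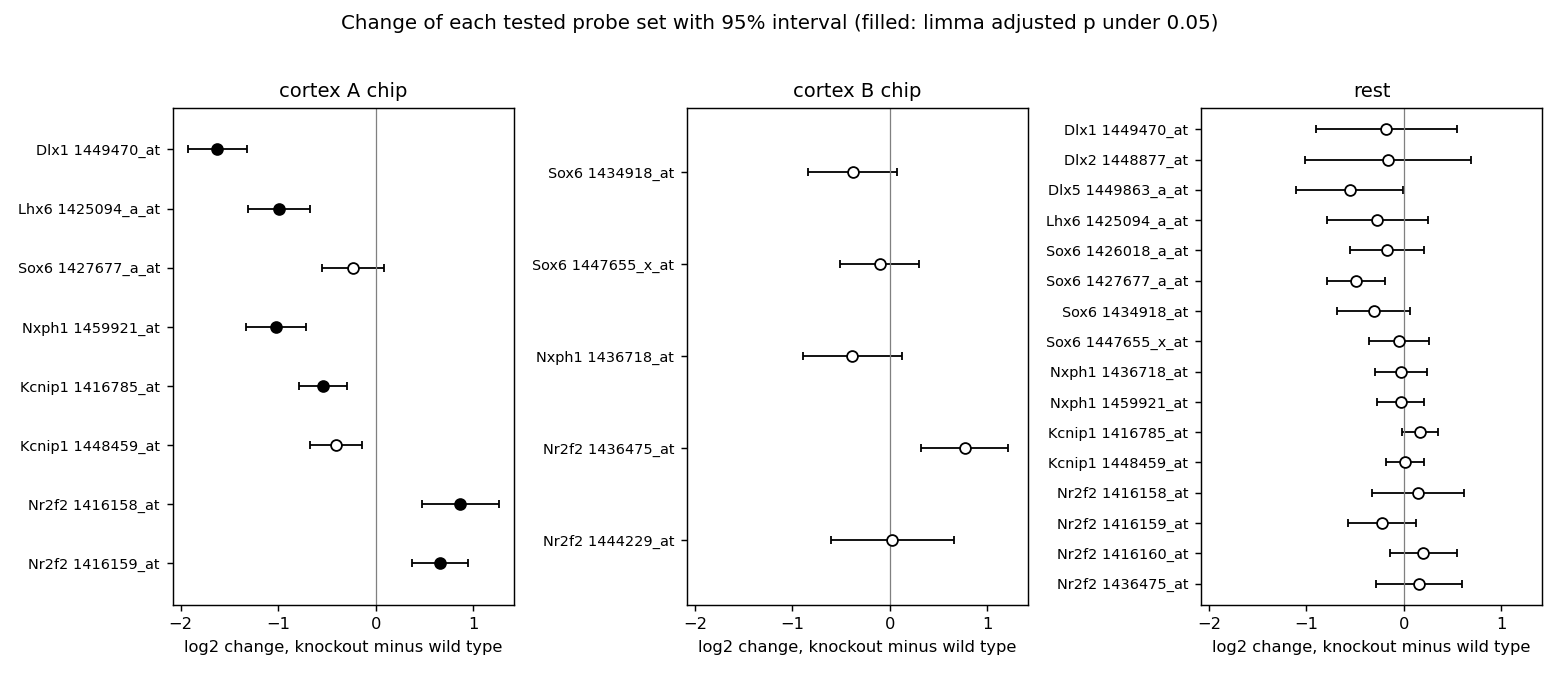
Log2 change (knockout minus wild type) of every tested member probe set with its 95% interval, for the cortex A chip, the cortex B chip and the rest table; filled points passed the limma adjusted p of 0.05. On the A chip the Dlx1, Lhx6, Nxph1 and Kcnip1 1416785_at points are filled left of 0 and 2 Nr2f2 points are filled right of 0, and no point is filled on the B chip or in the rest table.

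Nr2f2 is also a gene of venous and mesenchymal cells. Genes of mural, meningeal and endothelial cells moved in the same arrays, and the endothelial list is not limited to venous genes. On the A chip, 14 of 17 tested mural and meningeal genes were called higher and 0 lower, with a median log2 change of 1.16. The summed signal of the 15 listed throughout was 16301 to 19173 in knockout and 8112 to 8842 in wild-type cortex. Col3a1, a collagen of meningeal and vessel-wall fibroblasts, averaged 1798 ± 131 in knockout and 437 ± 50.3 in wild-type cortex (SD, n = 3 each). The smooth-muscle genes Acta2, Tagln and Myh11 and the pericyte gene Kcnj8 of that list were blank on all arrays of this chip. Of 17 tested endothelial genes, 4 were called higher (Cdh5, Tie1, Ramp2 and Cldn5) and 0 lower, with a median log2 change of 0.35. The log2 change was above 0 for 16 of them. It was -0.14 for Ackr1, which averaged 765 ± 45.9 in knockout and 842 ± 58.8 in wild-type cortex (SD, n = 3 each, limma adjusted p = 0.479). The summed signal of the endothelial list was 5294 to 5761 in knockout and 4270 to 4624 in wild-type cortex. In the rest table, 7 of 20 tested mural and meningeal genes were called higher and 0 lower, with a median log2 change of 0.69. Of 20 tested endothelial genes 0 were called there, with a median of 0.16. The Nr2f2 log2 changes in that table lay between -0.22 and 0.20, and none was called. The part of these cells in the Nr2f2 values was not tested.

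Among the 6 member probe sets listed on all A chip arrays, all knockout values were below all wild-type values for 4 (Lhx6, Nxph1 and both of Kcnip1), a pattern shared by 10.6% of all 11005 probe sets listed on all arrays. The reverse held for 1, Nr2f2 1416158_at, and for 11% of all. Sox6 overlapped.

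The medial genes were then set against the caudal gene on each array, as the mean centred log2 signal of the Lhx6 and Sox6 probe sets minus that of the Nr2f2 probe sets, using those listed on all arrays of the table. On the A chip the difference was -0.54, -0.61 and -1.08 in the knockout cortices, against 1.15, 0.27 and 0.80 in the wild-type cortices. The genotypes did not overlap, and knockout minus wild type was -1.48. On the B chip, where the only medial gene is Sox6, it was -0.88, -0.35 and -0.08 in knockout, against 0.33, 0.34 and 0.64 in wild-type cortex, again without overlap, and knockout minus wild type was -0.87. In the rest table it was -0.30, -0.30 and 0.11 in knockout, against -0.02, 0.15 and 0.36 in wild-type samples, and the genotypes overlapped. Knockout minus wild type was -0.33 there. These are descriptions without a test. The genes that make up the score were chosen with their changes known. The A chip value rests on 1 Lhx6, 1 Sox6 and 1 Nr2f2 probe set, and Sox6 itself did not pass the test. The B chip value rests on Sox6 1447655_x_at, which overlapped between genotypes (log2 change -0.11), and Nr2f2 1436475_at (0.77), neither called. It is thus mostly the difference in Nr2f2.

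**Figure D3:**
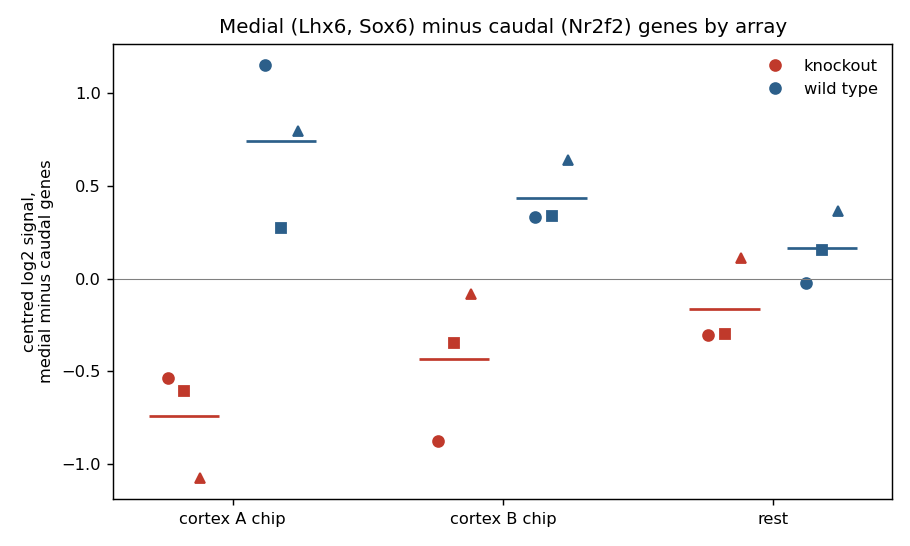
Centred log2 signal of the medial genes (Lhx6, Sox6; Sox6 alone on the B chip) minus that of the caudal gene Nr2f2 on each array, with knockout left of wild type in each table, circles, squares and triangles for replicates 1, 2 and 3, and a line at each mean. On the A chip all knockout points are at -0.54 or below and all wild-type points at 0.27 or above, while in the rest table the genotypes overlap.

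In the rest samples the same genes were listed more fully, with 18 of 23 member probe sets listed on at least 1 array and 16 tested, for 8 genes. None of the 16 was called by limma, with adjusted p from 0.211 to 0.98, and 2 had an unadjusted p under 0.05, as had 2250 of all 21407 probe sets tested in this table. Of all, 0.145% were called higher and 0.168% lower. Again 0 members were blank across 1 genotype and listed across the other, which was so for 0.395% (knockout blank) and 0.573% (wild type blank) of all. The median log2 change was -0.11 over the 16 and 0.00 over all.

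Dlx1 read 255, 193 and 158 in knockout rest samples, against 396, 226 and 129 in wild-type ones. The wild types alone spanned the whole knockout range. The log2 change was -0.18 (SE 0.323, 95% interval -0.91 to 0.54, limma adjusted p = 0.896), and it was 0.20 without wild-type replicate 1. Dlx2 read 117, 44.8 and 53.1 in knockout samples, against 129, 86.3 and 37.1 in wild-type samples, a difference of -0.16 on the log2 scale (SE 0.382, limma adjusted p = 0.924) that was 0.16 without the same array. Dlx5 read 85.2, 63.7 and 63.6 in knockout samples, against 156, 123 and 69.9 in wild-type samples, a log2 change of -0.56 (SE 0.244, 95% interval -1.11 to -0.01) that was not called (limma adjusted p = 0.466). Each of the 3 Dlx genes was highest in wild-type replicate 1, and Dlx1 and Dlx2 were lowest in wild-type replicate 3. The summed signal of striatal genes was 5231 to 5688 in the knockouts, 6135 and 6358 in wild-type replicates 1 and 2, and 4568, the lowest, in wild-type replicate 3. The sum over genes of non-cortical regions was at most 7988 on the other arrays and 10373 in wild-type replicate 3. Dlx genes are active in the striatum, and the part of such differences between samples in these values was not tested.

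Lhx6 1425094_a_at read 182, 90.1 and 152 in knockout rest samples, against 166, 205 and 139 in wild-type ones, and overlapped. Its log2 change was -0.27 (SE 0.231, 95% interval -0.79 to 0.24, limma adjusted p = 0.741). It was -0.015 without knockout replicate 2, -0.14 without wild-type replicate 2 and -0.46 without knockout replicate 1. The other Lhx6 probe set was listed in knockout replicate 1 at 41.8 and in wild-type replicates 2 and 3 at 63.3 and 55.5, and was not tested. Sox6 1427677_a_at read 111, 138 and 129 in knockout samples, against 175, 185 and 188 in wild-type samples. These groups did not overlap, as was so in the same direction for 8.19% of all probe sets listed throughout, and the log2 change of -0.49 (SE 0.131, 95% interval -0.78 to -0.20) was not called (limma adjusted p = 0.211). The other 3 Sox6 probe sets overlapped, with log2 changes of -0.31, -0.18 and -0.05. Here too genes of oligodendrocyte precursors were lower, with 3 of 16 called (Gpr17, Sox10 and Olig2) and a summed signal of 7372 to 9951 in knockout and 13603 to 14428 in wild-type samples. The part of these cells in the Sox6 values was not tested.

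The 4 tested Nr2f2 probe sets of the rest table did not move one way. Their log2 changes were 0.14 (1416158_at), -0.22 (1416159_at), 0.20 (1416160_at) and 0.15 (1436475_at), none called. For 1416158_at the knockout samples read 303, 305 and 284, within the wild-type range set by 398, 191 and 250.1. Nxph1 1459921_at read 576, 666 and 619 in knockout samples, against 569, 736 and 611 in wild-type samples, a log2 change of -0.04 (SE 0.108, 95% interval -0.28 to 0.21). The log2 change of the second Nxph1 probe set was -0.03. Kcnip1 1416785_at read 668, 708 and 656 in knockout samples, against 564, 622 and 621 in wild-type samples, so that all knockout values lay above all wild-type values, as for 8.19% of all probe sets listed throughout. Its log2 change was 0.17 (SE 0.081, 95% interval -0.02 to 0.35, limma adjusted p = 0.526), and Kcnip1 1448459_at, with a log2 change of 0.01, overlapped. Probe set 1433156_at of Kcnip1 was listed at 132 in knockout replicate 2 alone, against 179, 159.3 and 121 in the wild-type samples. This probe set was not tested, and its log2 change was -1.15 once a low signal stood in for the blanks (limma adjusted p = 0.386). Kcnip1 1454504_at and Nr2f2 1444229_at were blank on all rest arrays, and Nr2f2 1431237_at and Nxph1 1438388_at were blank on all B chip and rest arrays. On the A chip Kcnip1 1433156_at and 1454504_at were blank throughout.

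**Figure D4:**
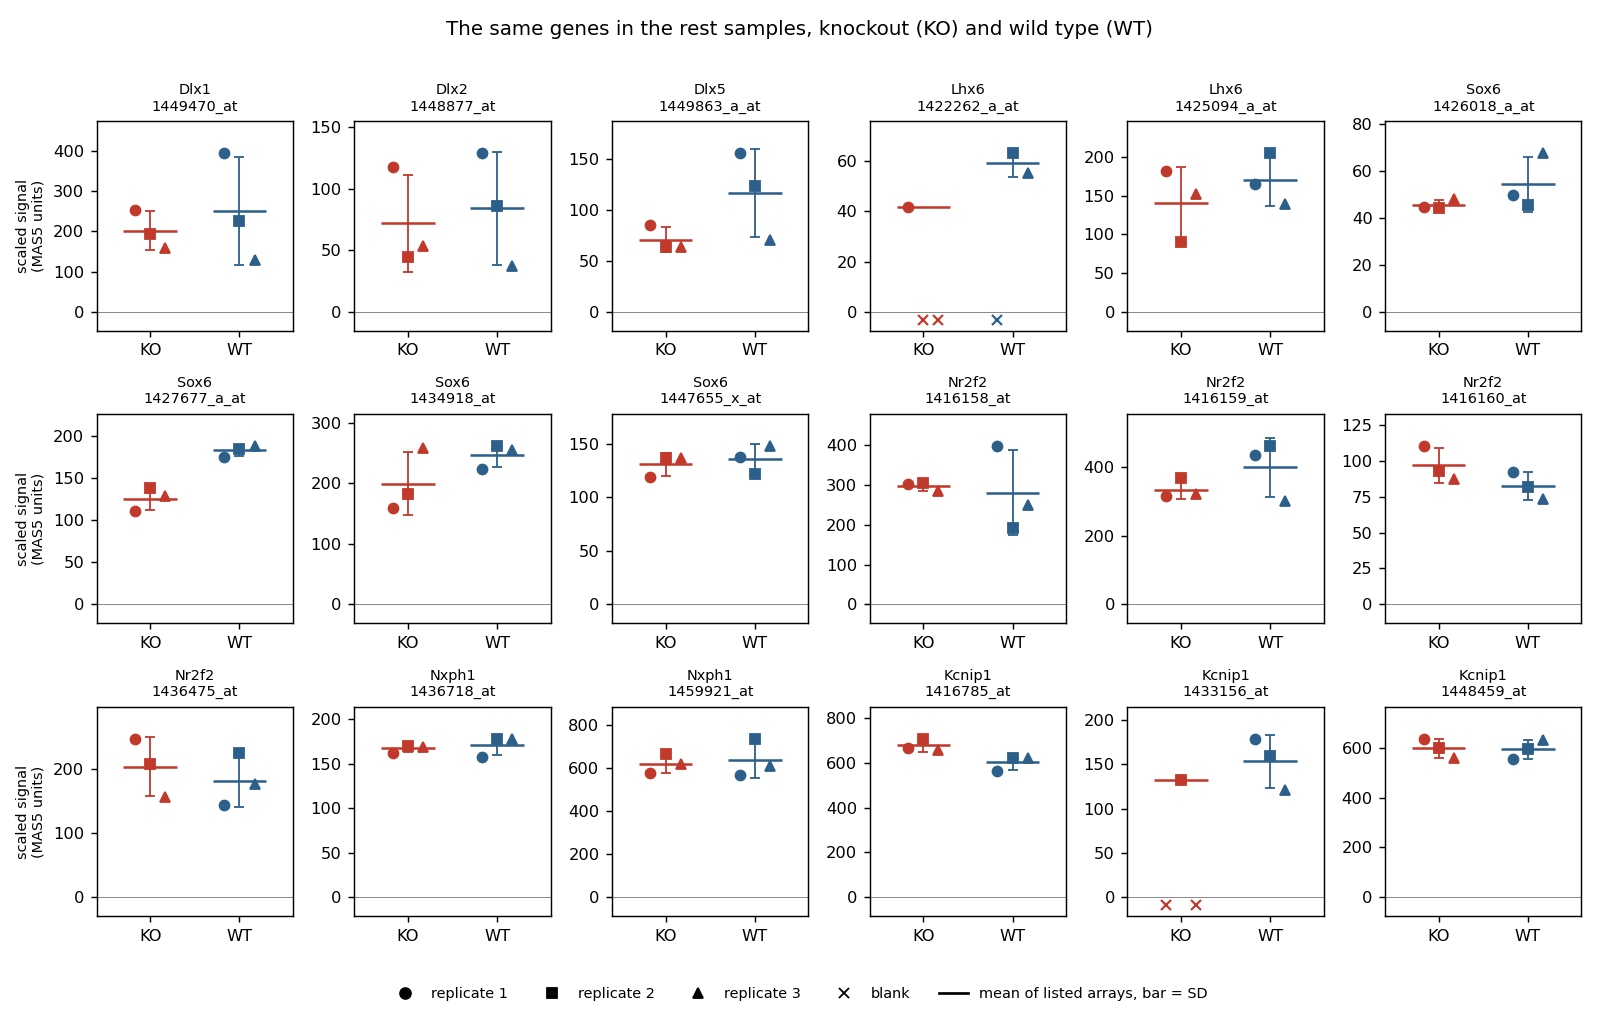
Scaled signal (MAS5 units, linear) of the 18 member probe sets listed on at least 1 rest array, with knockout (KO) left of wild type (WT), 1 point per array, the mean and SD of the listed arrays, and a cross for a blank. The genotypes overlap for most probe sets, with Sox6 1427677_a_at lower and Kcnip1 1416785_at higher in every knockout array.

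Whether the knockout effect differed between rest and cortex was tested as an interaction on the probe sets shared by both tables. The rest samples were run on another array type than the cortex samples, so tissue and array type cannot be told apart in this test. For the A chip, 0 of 8 member probe sets passed by limma, although 7 had an unadjusted p under 0.05, as had 1257 of all 11959 shared probe sets, of which 0.0502% passed. Kcnip1 1416785_at had the lowest adjusted p of the members: its log2 change was 0.71 higher in the rest samples than in the cortex (SE 0.122, 95% interval 0.45 to 0.97, limma adjusted p = 0.0678). For Nxph1 1459921_at the difference was 0.99 (95% interval 0.60 to 1.38, limma adjusted p = 0.0795) and for Dlx1 1.44 (95% interval 0.53 to 2.35, limma adjusted p = 0.23). Lhx6 differed by 0.72 (95% interval 0.09 to 1.34, limma adjusted p = 0.398). For Nr2f2 the differences were -0.72 for 1416158_at and -0.88 for 1416159_at (limma adjusted p = 0.426 and 0.177). The estimated effects of these 6 probe sets were nearer 0 in the rest samples, and the differences did not pass the test. Sox6 1427677_a_at went the other way, with a log2 change of -0.49 in the rest samples and -0.24 in the cortex, a difference of -0.26 (95% interval -0.64 to 0.13, limma adjusted p = 0.661). The difference of Kcnip1 1448459_at was 0.42 (limma adjusted p = 0.29). Dlx2 and Dlx5, with no cortex change to compare, had no interaction value. For the B chip, 0 of 4 member probe sets and 0% of all 6563 shared probe sets passed by limma, with 0 of the 4 and 521 of all at an unadjusted p under 0.05.

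The genes with signals most like those of 2 members over the 6 A chip arrays were found among 11005 probe sets by the mean absolute difference of centred log2 signals. For Lhx6 they were Nxph1 (0.064), Npnt (0.119), an extracellular matrix protein, and Cnp (0.126), an enzyme of myelin. Cnp read 157, 221 and 172 in knockout and 465, 348 and 388 in wild-type cortex. For Nr2f2 1416158_at they were Jun (0.0723), a transcription factor of the early response, Tm2d2 (0.108) and Rras (0.136), a small GTPase. Jun read 259.9, 280.4 and 272 in knockout and 124, 192 and 124 in wild-type cortex. As with Nr2f2, wild-type replicate 2 was the highest of its genotype for Jun, Tm2d2 and Rras. These genes were picked for likeness over the same arrays, so the shared high value is not a separate result.

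Another 43 genes of interneurons and their lineage were listed as a setting for the members. On the A chip 33 had a probe set and 19 were tested, of which 3 were called lower and 0 higher. An unadjusted p under 0.05 was found for 8 of the 19, as for 1899 of all 12065 probe sets tested there. Gad1, an enzyme that makes GABA, averaged 423 ± 60.1 in knockout and 641 ± 71.0 in wild-type cortex (SD, n = 3 each; log2 change -0.58, limma adjusted p = 0.0207). Satb1, a chromatin factor of medial eminence interneurons, averaged 597 ± 43.7 in knockout and 784 ± 59.0 in wild-type cortex (log2 change -0.38, limma adjusted p = 0.0424), and Cnr1, the cannabinoid receptor of one interneuron class, 46.0 ± 4.89 in knockout and 82.7 ± 11.0 in wild-type cortex (log2 change -0.67, limma adjusted p = 0.0334).

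Gad1, Gad2 and Slc32a1, the 3 tested genes of the general GABAergic list, had a median log2 change of -0.58. Gad1 was called, and the log2 changes were -0.38 for Gad2 (limma adjusted p = 0.311) and -0.67 for the vesicular GABA transporter Slc32a1 (limma adjusted p = 0.0629). The Gad2 probe set of the B chip averaged 1001 ± 432 in knockout and 1055 ± 541 in wild-type cortex (SD, n = 3 each). Its log2 change was -0.05 (limma adjusted p = 0.995). In the rest table the log2 changes were 0.28 for Gad2, 0.20 for Slc32a1 and -0.01 for Gad1, none called. On the A chip the other medial eminence genes had a median log2 change of 0.08 over 9 tested, with 1 called fall. The other caudal eminence genes had one of -0.07 over 7 tested, also with 1 called fall. Of the 9 medial genes, 5 had a log2 change above 0 and 4 below, and of the 7 caudal genes 2 and 5. The medial genes above 0 included Tac1 (0.63), Sst (0.23) and Npy (0.20), none called (limma adjusted p = 0.186, 0.268 and 0.297). Both medians lay near 0, in contrast to the changes of Lhx6 and Nr2f2, and whether the lists differ from these members was not tested. Limma called 0 of the 12 that were tested on the B chip and 0 of the 29 that were tested among the rest samples, with an unadjusted p under 0.05 for 4 and 8 of them. The 4 on the B chip did not move one way. Cnr1 averaged 698 ± 105 in knockout and 1140 ± 116 in wild-type cortex (limma adjusted p = 0.067), and Adarb2, an RNA-editing family member of the caudal list, 230.0 ± 51.3 in knockout and 424 ± 41.5 in wild-type cortex (limma adjusted p = 0.0965). Ndnf, a secreted protein also on the caudal list, was higher at 475 ± 56.9 in knockout and 304 ± 32.6 in wild-type cortex (limma adjusted p = 0.219). Zeb2, a transcription factor of the medial list, averaged 655 ± 41.97 in knockout and 935 ± 249 in wild-type cortex (limma adjusted p = 0.507; SD, n = 3 each for the 4 genes).

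**Figure D5:**
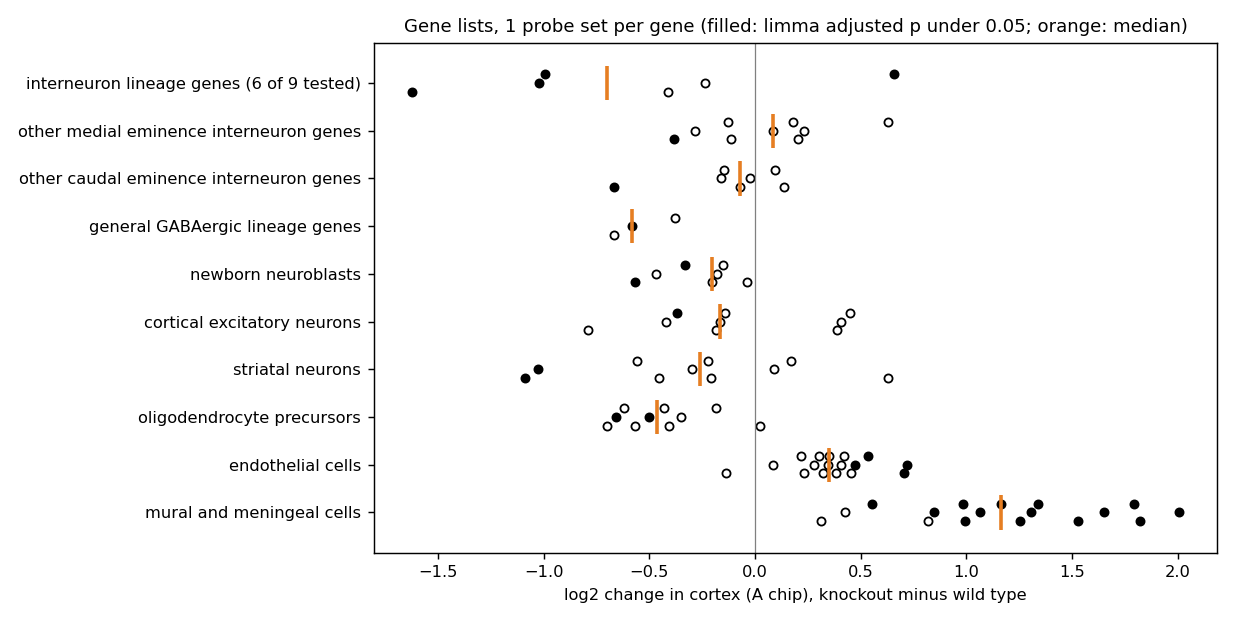
Log2 change in cortex on the A chip (knockout minus wild type), 1 probe set per gene, for the members and for lists of other interneuron genes and other cell types; filled points passed the limma adjusted p of 0.05 and orange lines are medians. The general GABAergic list has its median at -0.58, the other medial and caudal lists have theirs at 0.08 and -0.07, and mural and meningeal genes have theirs at 1.16.

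Bulk arrays cannot tell fewer cells of a type from less RNA per cell, for the interneuron genes as for the other lists. Beside the Dlx values stand the striatal list and the list of newborn neuroblasts. Of 10 tested striatal genes, 7 had a log2 change below 0 and 2 were called lower on the A chip (Ppp1r1b, log2 change -1.09, and Rxrg, -1.02). Summed signals take only genes listed on all arrays of a table, so the striatal sum leaves out both of these. Over the 7 striatal genes listed throughout it was 2165 to 2329 in knockout and 1930 to 2888 in wild-type cortex. Of the 7 tested neuroblast genes 2 were called lower (Dcx and Cd24a), and all 7 had a log2 change below 0. Their summed signal was 10736 to 11594 in knockout and 12808 to 13503 in wild-type cortex. The striatal sums overlapped, since wild-type replicate 2 had the lowest sum of all. The sums for neuroblasts did not overlap. Of the 9 tested cortical excitatory genes 1 (Mef2c) was called lower. Log2 changes were below 0 for 6 of the 9 and above 0 for 3. Their summed signal was 6999 to 8156 in knockout and 8379 to 9442 in wild-type cortex. Bright genes weigh most in this sum, among them Mef2c, with means of 2498 in knockout and 3227 in wild-type cortex. The part of striatal cells and neuroblasts in the Dlx values was not tested.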

How the data were processed

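Total RNA was measured on 18 Affymetrix arrays. The deposited values are intensity values, linear probe set signals that the authors made with MAS5, per the submitters' processing notes; version and settings are not given in the sources used here. The 64 control probe sets of a table were dropped. Arrays of a table were brought to 1 mean signal, computed without the top and bottom 2% over probe sets with a value on all 6 (factors 0.948 to 1.06), before log2(signal + 16) was taken. Limma 3.58.1 (R 4.3.3; lmFit, eBayes with a trend, no covariate, two-sided) was run per table on every probe set with at least 2 values per genotype, with Benjamini-Hochberg adjustment over all of them. An interaction fit over the probe sets that a pair of tables share gave the differences between tables. Levels were never compared between tables.

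Probe sets were named from the array annotation where it gives exactly 1 gene. The 9 genes, the other gene lists and the rules were chosen with earlier results of these data known. All member probe sets are accounted for. From other lists up to 4 genes are named, called ones by size of change, otherwise by lowest p. Outside that rule, Tac1, Sst and Npy are named as medial genes that were not called, and Ackr1 as the tested endothelial gene with an A chip log2 change below 0. The fits were tested on simulated data. The main fits did not pair samples by replicate number. Correlations of same-numbered arrays lay between -0.00876 and 0.251, and fell below 0.1 for at least 1 pair in each table. The best match had the same number for every replicate on the B chip, for replicates 2 and 3 in the rest table and for none on the A chip. The alternatives were other scalings, offsets, filters, treatments of blanks, variance settings, array weights, a replicate block, the sex-marker term, leaving out each array, and another threshold. The number of arrays limits the precision.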

Additional observations from a re-analysis of the deposited data

Results flagged for a closer look

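The knockout arrays of Kcnip1 1416785_at lay on opposite sides of the wild-type arrays in the rest samples and the cortex. All 3 were above all 3 wild types in the rest table (log2 change 0.17, 95% interval -0.02 to 0.35, not called, limma adjusted p = 0.526), and all 3 were below them on the cortex A chip (-0.54, limma adjusted p = 0.026). The difference between them, rest minus cortex, was 0.71 (95% interval 0.45 to 0.97), and the array type differed along with the tissue. It was tested as an interaction and did not pass (limma adjusted p = 0.0678; 0.055 to 0.711 over 11 alternatives). The other tested Kcnip1 probe set, 1448459_at, had a difference of 0.42 (limma adjusted p = 0.29). In the rest table Kcnip1 1433156_at, listed on 1 knockout and 3 wild-type arrays, had a log2 change of -1.15 with blanks set to a low signal (limma adjusted p = 0.386).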

How the results depend on the processing

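Dlx1 (15 alternatives with a value), Lhx6 and Nxph1 (19 each) kept their A chip calls under every alternative run. Kcnip1 1416785_at kept its call in 11 of 19, Nr2f2 1416158_at in 12 of 18 and Nr2f2 1416159_at in 10 of 15. Of the 8 tested A chip probe sets 6 were called; the count was 4 with the replicate block, 4 of 12 with blanks set low, 2 of 6 with the sex-marker term, 3 of 6 without knockout replicate 1, 2 of 6 without knockout replicate 2, 4 of 8 without knockout replicate 3 or wild-type replicate 2, and 3 of 8 without wild-type replicate 1 or 3. With the block, Kcnip1 1416785_at had a limma adjusted p of 0.0653 and Nr2f2 1416159_at one of 0.0795. The main fits did not use the numbers. On the B chip every array matched its own number best, which was not so on the A chip or for every array of the rest table. On the B chip Nr2f2 1436475_at was called with array weights alone (limma adjusted p = 0.0272).

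The number of probe sets called on the A chip (364) was 82 with the sex-marker term, 607 at an adjusted p of 0.10, and 185 to 330 with 1 array left out. On the B chip (22) it was 11 with blanks set low, 9 without a variance trend, 66 with array weights, 12 with the replicate block, 48 at 0.10, and 9 to 25 with 1 array left out. In the rest table (67) it was 103 with blanks set low, 11 without a trend, 142 with the replicate block, 10 with the sex-marker term, 161 at 0.10, and 13 to 69 with 1 array left out. For the interaction with the A chip (6) it was 3 with an offset of 64, 3 without a trend, 0 with the sex-marker term, and 0 to 13 with 1 array left out. The medial minus caudal difference on the A chip (-1.48) was -1.07 with an offset of 64. Another setting left out Sox6 and took the brightest Lhx6 and Nr2f2 probe sets among those listed on all arrays. It gave -1.86 on the A chip, where it differs from the main score only by leaving out Sox6, and -0.052 in the rest table. The B chip holds no Lhx6 probe set for that setting.

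Turns of direction concerned changes that were not called, apart from Nr2f2 1416159_at on the A chip (-0.10 with blanks set low). With the sex-marker term, log2 changes turned to 0.048 (Nxph1 1436718_at, B chip) and, in the rest table, to 0.060 (Sox6 1434918_at), 0.011 (Sox6 1447655_x_at), -0.18 (Nr2f2 1436475_at) and -0.078 (Kcnip1 1448459_at); Nxph1 1436718_at turned to 0.0016 with quantile scaling. Leaving out 1 rest array gave ranges across 0, from -0.083 (without wild-type replicate 2) to 0.42 for Nr2f2 1416158_at, -0.12 to 0.012 for Sox6 1447655_x_at, -0.035 to 0.057 for Kcnip1 1448459_at, -0.56 to 0.16 for Dlx2, -0.56 to 0.20 for Dlx1 and -0.11 to 0.069 for Nxph1 1459921_at. For rest minus B chip, Nxph1 1436718_at turned to -0.061 with the sex-marker term, and leaving out 1 replicate gave -0.12 to 0.22 for Sox6 1434918_at and -0.0077 to 0.15 for Sox6 1447655_x_at. The cause of these shifts was not tested. Dim signals limit Dlx2, Dlx5 and Nr2f2 1416160_at, which were blank on most or all cortex arrays of a genotype.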
